A study of Mus musculus with 9 samples.

Results

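The Hox cluster genes encode homeodomain transcription factors that give cells their position along the head-to-tail axis. In the mouse they lie in 4 clusters, and each gene is numbered by its paralogue position, so that Hoxa9, Hoxb9, Hoxc9 and Hoxd9 are related copies at position 9. The members were taken by symbol, as rows of the count table whose name is Hoxa, Hoxb, Hoxc or Hoxd followed by a number alone. Of 39 such coding genes, 38 were analysed here, among the 38293 genes of the table, 11 in cluster A, 10 in cluster B, 9 in cluster C and 8 in cluster D. In mm10 they span chromosome 6 from 52155590 to 52260880, chromosome 11 from 96194316 to 96368256, chromosome 15 from 102921103 to 103036852 and chromosome 2 from 74668310 to 74765142. Hoxd4 was not analysed here.

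Hox genes are known for being switched on in order, those of low number first and nearer the head, those of high number later and towards the tail. Before gastrulation and in pluripotent cells the clusters are classically covered by Polycomb proteins and their repressive mark on histone H3 lysine 27, and Wnt, FGF and retinoic acid signals together with the caudal (Cdx) factors open them in the embryo. The products bind DNA with cofactors of the TALE class, Pbx, Meis and Pknox.

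Poly-A RNA was sequenced from E14, a mouse embryonic stem cell line of the 129/Ola strain, in 3 culture states with 3 biological replicates each. mESC-2i were grown in serum-free N2B27 with leukaemia inhibitory factor (LIF), the MEK inhibitor PD0325901 and the GSK3 inhibitor CHIR99021, and are the naive state of the labels. The titles of the mESC-2i samples also carry the letters LT, which those of the other states lack. These letters were not interpreted here. mESC-ser were grown on gelatin in DMEM with foetal bovine serum and LIF, and are labelled primed. EpiLC were made from naive cells on human plasma fibronectin in N2B27 with activin A, bFGF and knockout serum replacement (KSR). All 9 libraries come from 1 line, and the culture media differed in several components at once, so their parts in a difference cannot be told apart.

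Libraries held between 7187576 and 16829549 counts. Levels are given as counts, as CPM (counts relative to library size, scaled by TMM over the 9 libraries) or, between genes, as RPKM (CPM per kilobase of annotated exon). The markers of each state followed the labels, with a summed level of 7 naive genes of 3077 to 3180 CPM in mESC-2i, then 1611 to 1706 CPM in mESC-ser and 90.2 to 103 CPM in EpiLC. The summed level of 5 formative genes was 82.7 to 94.9 CPM, 765 to 913 CPM and 2161 to 2222 CPM in the same order. Replicates of a group differed by more than counting noise, most of all replicates 2 and 3 of mESC-2i (chi-square of 30.5 per degree of freedom across genes), so the effect of each library was computed by leaving it out.

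The promoters of 3 genes are shown because their genes stand at the ends of the pattern described below, Hoxc4 and Hoxd9 among the genes with the largest falls outside the naive state and Hoxd13 as the gene that was called in the opposite direction. Sequences are the 250 bases before the annotated start in RefSeq on GRCm38.p6, on the plus strand, and capitals mark matches to 1 of 4 short motifs. The Hoxc4 promoter lies at chr15:103034145-103034394, that of Hoxd9 at chr2:74697513-74697762 and that of Hoxd13 at chr2:74667975-74668224.
Hoxc4: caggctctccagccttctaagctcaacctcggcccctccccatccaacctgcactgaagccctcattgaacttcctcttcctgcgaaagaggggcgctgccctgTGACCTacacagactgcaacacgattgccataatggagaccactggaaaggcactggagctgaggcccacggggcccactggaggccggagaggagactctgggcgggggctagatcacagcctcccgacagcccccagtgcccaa
Hoxd9: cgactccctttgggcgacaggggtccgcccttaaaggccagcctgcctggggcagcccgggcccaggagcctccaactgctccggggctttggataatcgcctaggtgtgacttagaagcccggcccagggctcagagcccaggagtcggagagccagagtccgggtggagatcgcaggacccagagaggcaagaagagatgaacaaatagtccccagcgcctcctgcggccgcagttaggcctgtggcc
Hoxd13: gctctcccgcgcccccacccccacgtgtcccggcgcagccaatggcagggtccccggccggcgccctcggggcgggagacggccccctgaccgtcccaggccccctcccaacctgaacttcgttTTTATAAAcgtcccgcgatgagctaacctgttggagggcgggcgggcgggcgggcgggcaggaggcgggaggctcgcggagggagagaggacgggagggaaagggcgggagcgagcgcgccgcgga

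RefSeq held 23 promoters for 21 of the 38 Hox genes. In windows of 300 bases, which add 50 bases after the start, they held a median of 15 CG dinucleotides (range 4 to 45), where all 32851 promoters held a median of 7. The printed stretches of Hoxc4, Hoxd9 and Hoxd13 hold 8, 13 and 31. The 4 motifs were searched on both strands. CTTTGAT, a core bound by the TCF/LEF factors of Wnt signalling, was in 1 of 23 Hox promoters (Hoxd8) and 3.73% of all promoters. TTTATTG, a core bound by caudal and posterior Hox proteins, was in 1 (Hoxb8) and 4.60% of all. AGGTCA, a half-site of nuclear receptors such as those of retinoic acid, was in 6, Hoxc4 among them, and 16.3% of all. TATAAA, the TATA box, was in 3, Hoxd13 among them with 2 overlapping matches on the 2 strands, and 13.6% of all. Hoxd9 held none of the 4 in its window. These matches describe letters, and binding was not measured.

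Hox transcripts were most abundant in mESC-2i, lower in mESC-ser and close to the detection limit in EpiLC. The 38 genes summed to 119, 113 and 126 CPM in the 3 mESC-2i libraries, to 21.1, 23.1 and 22.5 CPM in mESC-ser, and to 5.99, 4.91 and 4.64 CPM in EpiLC. No library of one state overlapped with those of another. The means were 119 ± 6.14 CPM (SD, n = 3), 22.2 ± 0.987 CPM and 5.18 ± 0.714 CPM, a 5.37-fold difference between mESC-2i and mESC-ser, a 4.29-fold difference between mESC-ser and EpiLC and a 23.0-fold one between mESC-2i and EpiLC. Without the 5 highest genes of mESC-2i the sums were 55.4 ± 1.72, 11.9 ± 0.386 and 4.51 ± 0.827 CPM. In bulk RNA, fewer cells that express a gene and less RNA per cell cannot be told apart.

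**Figure D1:**
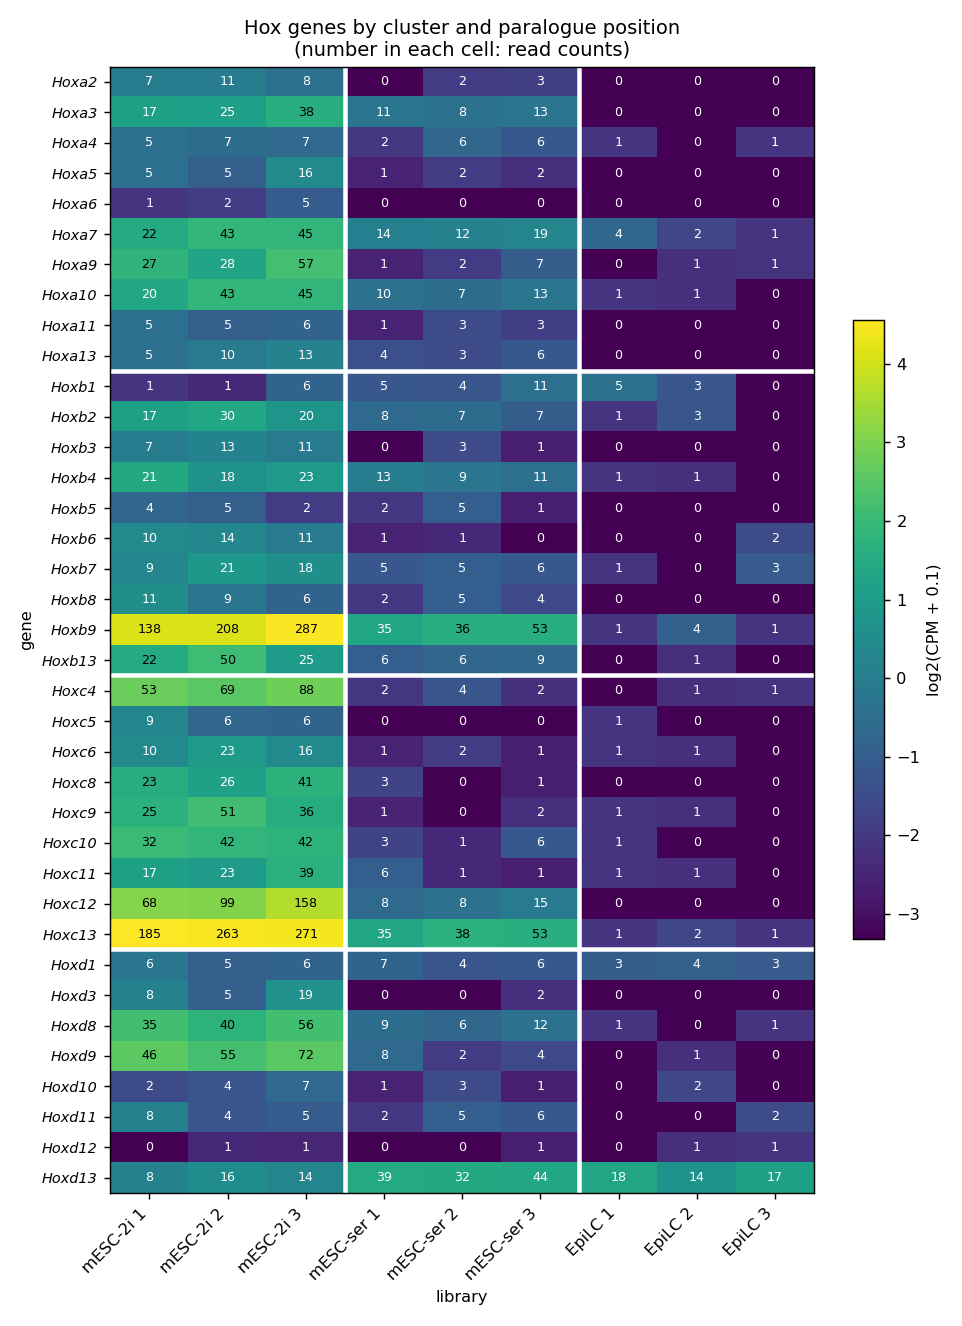
Read counts (numbers) and levels (colour, log2 of CPM plus 0.1) of 37 Hox genes in the 9 libraries, ordered by cluster and paralogue position. Nearly all rows darken from mESC-2i to mESC-ser to EpiLC, the highest counts are those of Hoxb9 and Hoxc13 in mESC-2i (up to 287 and 271), and Hoxd13 has its highest counts, 32 to 44, in mESC-ser.

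Even in mESC-2i the levels were low. Of the 38 genes, 6 lay above the median of all genes with a count, 2.10 RPKM, and the median Hox gene stood at 0.577 RPKM. In mESC-ser and EpiLC no Hox gene lay above the corresponding medians of 1.74 and 1.76 RPKM, and the median Hox gene stood at 0.105 and 0.0276 RPKM. Per length the order in mESC-2i was led by Hoxc12 (9.46 ± 2.24 RPKM), Hoxc13 (9.02 ± 0.429) and Hoxb9 (7.42 ± 1.16). The ranges of neighbours in this order overlapped over the 3 libraries. Hoxc4 (2.51 ± 0.238 RPKM) and Hoxd9 (2.5 ± 0.310) stood below these, and their ranges overlapped too. Among the highest in mESC-ser were Hoxc13 (1.17 ± 0.165 RPKM), Hoxb9 (1.10 ± 0.138) and Hoxd13 (1.06), with overlapping ranges. In EpiLC it was led by Hoxd13 (0.814 RPKM).

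A gene was taken to be at the floor of detection in a state when each of its 3 libraries held 3 counts or fewer. In mESC-2i 1 of 38 Hox genes was at the floor, Hoxd12, where 52.9% of all genes of the table were. In mESC-ser 13 were at the floor (background 51.5%), and in EpiLC 33 (background 55.8%), of which 12 had no read in any library. The 5 genes above the floor in EpiLC were Hoxa7, Hoxb1, Hoxb9, Hoxd1 and Hoxd13, and apart from Hoxd13 none of them exceeded 5 counts in a library. In EpiLC all 9 genes of cluster C were at the floor, 10 of 11 of cluster A, 8 of 10 of cluster B and 6 of 8 of cluster D. A count of 3 corresponded to 0.236 to 0.379 CPM in mESC-2i, then 0.173 to 0.25 CPM in mESC-ser and 0.328 to 0.400 CPM in EpiLC, so the deeper mESC-ser libraries could show lower levels. With all counts scaled to the smallest library, 1, 17 and 35 genes were at the floor. These limits cover counting error only.

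The clusters differed in how far they fell. Cluster C summed to 52.7 ± 2.30 CPM in mESC-2i, 4.41 ± 0.309 CPM in mESC-ser, then 0.568 ± 0.284 CPM in EpiLC. Cluster B summed to 31.1 ± 0.946, 5.99 ± 0.722 and 1.09 ± 0.295 CPM. Cluster A summed to 22.6 ± 1.89, 7.42 ± 0.167 and 0.746 ± 0.279 CPM. Cluster D went from 13.1 ± 1.94 to 4.42 ± 0.114 and 2.78 ± 0.331 CPM. Mean mESC-2i levels were therefore 12.0-fold above mESC-ser in cluster C, 5.19-fold in B, 3.04-fold in A and 2.96-fold in D. The share of all Hox CPM held by cluster C was 44.2%, 19.8% and 11% in the 3 states in that order, and that of cluster D was 11%, 19.9% and 53.7%. Hoxd13 alone made up 0.961%, 11.8% and 39% of the Hox CPM in the 3 states. Its mean levels of 1.15, 2.63 and 2.02 CPM are part of the cluster D sums. The place of cluster D as the smallest fall therefore depends on this gene. These differences between clusters are descriptions and were not tested.

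**Figure D2:**
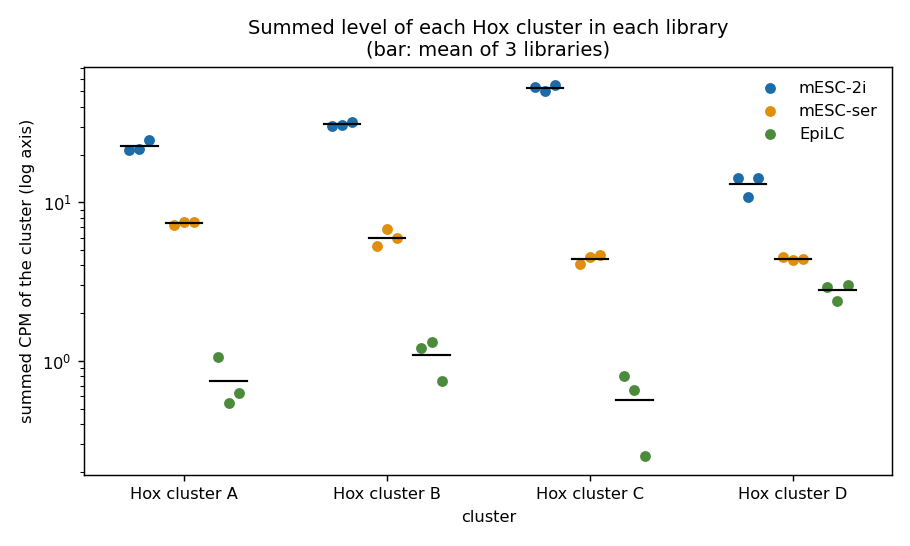
Summed CPM (log axis) of the Hox genes of each cluster in each library, with the mean of 3 libraries as a bar. In every cluster the mESC-2i libraries lie above the mESC-ser libraries and these above the EpiLC libraries. Cluster C has the widest separation, from 52.7 to 0.568 CPM in the means. Cluster D has the narrowest, from 13.1 to 2.78 CPM, of which Hoxd13 held 1.15 and 2.02 CPM.

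By paralogue class, the 16 posterior genes (positions 9 to 13) made up 66.0% of the Hox CPM in mESC-2i, at 78.9 ± 5.05 CPM, and fell to 12.0 ± 0.952 CPM in mESC-ser, then 3.08 ± 0.171 CPM in EpiLC. The 14 central genes (positions 4 to 8) summed to 26.1 ± 1.82, 4.09 ± 0.566 and 1.00 ± 0.408 CPM. The 8 anterior genes (positions 1 to 3) summed to 14.5 ± 0.368, 6.09 ± 0.233 and 1.10 ± 0.428 CPM. The mean levels of mESC-2i and mESC-ser differed 6.55-fold in the posterior, 6.38-fold in the central and 2.38-fold in the anterior class. By single position, mESC-2i over mESC-ser reached 18.9-fold at position 6 and 13.8-fold at position 12, with no steady course along the numbers.

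**Figure D3:**
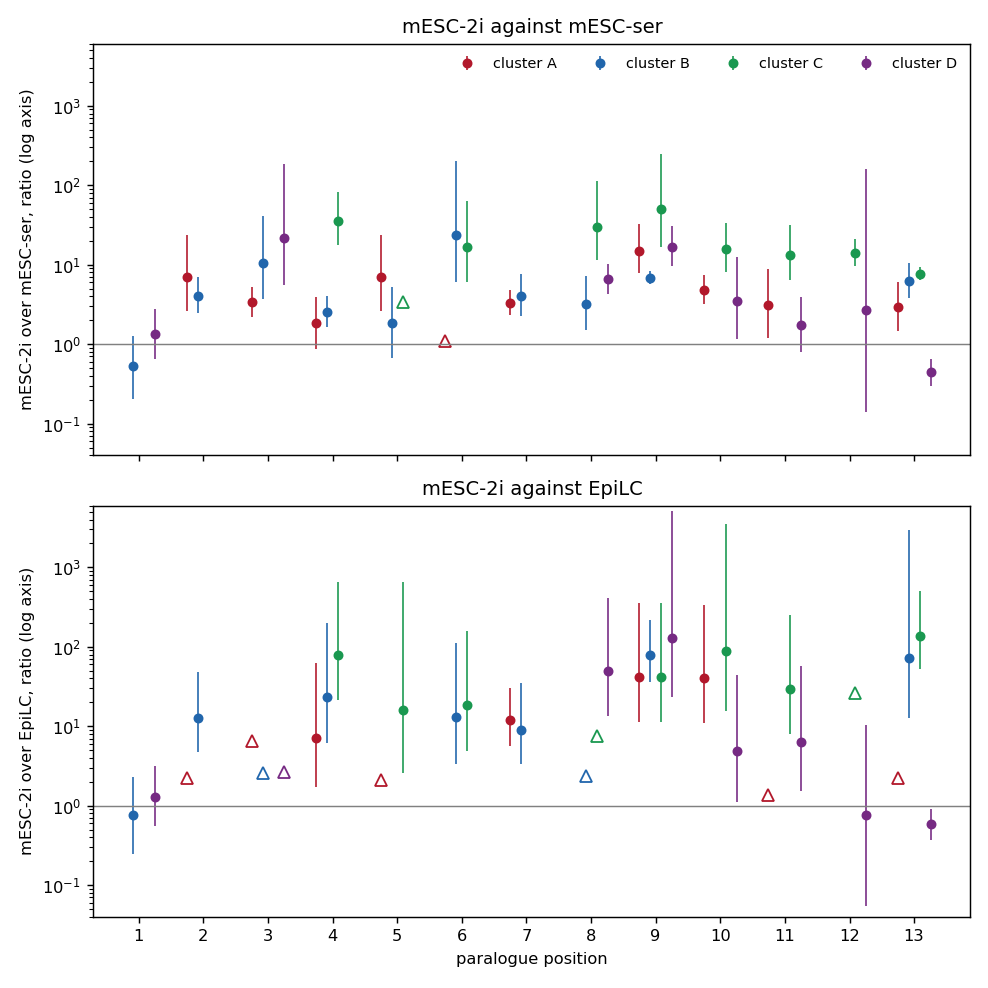
Ratio of the mESC-2i level to that of mESC-ser (top) and EpiLC (bottom), log axis, for 37 Hox genes by paralogue position and cluster. Filled points have 95% exact counting intervals from the summed counts of 3 libraries, open triangles are lower bounds for genes with no read in the lower group (3 counts in each library taken as the floor), and 2 genes of EpiLC without reads, Hoxa6 and Hoxb5, have no bound as their mESC-2i level lay under it. Most points lie above 1. Hoxd13, at position 13 in cluster D, and Hoxb1 lie below 1 in both panels, and Hoxd12 lies below 1 against EpiLC. Of these genes only Hoxd13 has intervals that leave out 1.

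The comparison of mESC-ser with mESC-2i asked what serum does relative to 2i. Hox genes were lower in mESC-ser. Of 23 Hox genes that passed the filter on low counts, 22 were called lower and 1, Hoxd13, higher (edgeR, Benjamini-Hochberg adjusted p under 0.05 and absolute log2 fold change over 0.5). Among all 15728 genes tested, 30.3% were called lower and 25.9% higher. In means, 36 of the 38 genes were lower in mESC-ser, the exceptions being Hoxb1 and Hoxd13. In 32 genes all 3 mESC-ser libraries lay below all mESC-2i libraries in CPM, in 1 all lay above, and in 5 the groups overlapped. Over all genes with a count these shares were 26.5% for lower and 26.8% for higher. A gene high in only 1 group passes the filter through that group, so the 23 are not all members. Over all 38 genes the median change was -2.64 on the log2 scale in a fit without the filter, against 0.02 over all genes with a count. It was -1.96 with the 12 genes at the floor in mESC-ser alone set at that limit, which was not done for the background. Without replicate 3 of mESC-2i, or without any other single library, 23 to 25 Hox genes were called lower and 1 higher.

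Of the anterior genes, Hoxa3, Hoxb2 and Hoxb3 were called lower in mESC-ser. Hoxa3, needed for the thymus and parathyroid, held 17, 25 and 38 counts in mESC-2i, 11, 8 and 13 in mESC-ser, then 0 in each EpiLC library, with a log2 fold change in mESC-ser of -1.75 (SE 0.278). Hoxb2, a hindbrain gene, held 17, 30 and 20 counts, then 8, 7 and 7, then 1, 3 and 0 (log2 fold change in mESC-ser -2.04, SE 0.322). Hoxb3, its neighbour, held 7, 13 and 11 counts, then 0, 3 and 1, then none (-3.27, SE 0.622). Both lay lower in every mESC-ser library than in every mESC-2i library.

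Hoxd3 held 8, 5 and 19 counts in mESC-2i, 0, 0 and 2 in mESC-ser and none in EpiLC. It did not pass the filter, and its libraries did not overlap between mESC-2i and the other states. Reads of several of these genes cannot be told from those of overlapping transcripts, since the kit does not mark strand. Of the 50-base words of their annotated transcripts, 60.3% in Hoxd3, 51.4% in Hoxb3, 25.9% in Hoxb2 and 24.3% in Hoxa3 also occur in another gene, mainly transcripts of the same cluster. Across the 38 genes 17 had no such word and 9 had over 10%.

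Central genes, which pattern the neck and trunk, included several that fell to a few reads. Hoxc4 (ENSMUSG00000075394) held 53, 69 and 88 counts in mESC-2i, 2, 4 and 2 in mESC-ser, then 0, 1 and 1 in EpiLC. Its mean of 6.45 ± 0.612 CPM thus dropped to 0.195 ± 0.12 CPM, or by 5.09 on the log2 scale (SE 0.324, edgeR adjusted p = 5.02e-07). Hoxc8, which shapes thoracic identity, held 23, 26 and 41 counts, then 3, 0 and 1, then 0 in each EpiLC library. Hoxc6 held 10, 23 and 16 counts, then 1, 2 and 1, then 1, 1 and 0. These 3 genes of cluster C were near the floor in both other states, with log2 fold changes in mESC-ser of -4.81 (SE 0.505) for Hoxc8 and -3.92 (SE 0.479) for Hoxc6. Hoxd8, in cluster D, held 35, 40 and 56 counts, then 9, 6 and 12, then 1, 0 and 1, and its log2 fold change in mESC-ser was -2.73 (SE 0.263).

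Hoxa7, Hoxb4 and Hoxb7, of the central class in clusters A and B, kept more counts in serum than Hoxc4, Hoxc6 and Hoxc8. Hoxa7 held 22, 43 and 45 counts in mESC-2i, 14, 12 and 19 in mESC-ser, then 4, 2 and 1 in EpiLC. Hoxb4, known from blood stem cells, held 21, 18 and 23 counts, then 13, 9 and 11, then 1, 1 and 0. Hoxb7 held 9, 21 and 18 counts, then 5, 5 and 6, then 1, 0 and 3. The log2 fold changes of these 3 in mESC-ser were -1.72 (SE 0.235), -1.37 (SE 0.317) and -2.0 (SE 0.335). Hoxb6 differed from its neighbours, with 10, 14 and 11 counts in mESC-2i, 1, 1 and 0 in mESC-ser, then 0, 0 and 2 in EpiLC. From 35 against 2 summed counts its mESC-2i to mESC-ser ratio was 23.5 (95% exact interval 6.05 to 202, counting error only).

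Posterior genes held the highest counts. Hoxc13 (ENSMUSG00000001655), needed for hair and nails, held 185, 263 and 271 counts in mESC-2i, 35, 38 and 53 in mESC-ser, then 1, 2 and 1 in EpiLC. Its level was 22.2 ± 1.06 CPM, 2.87 ± 0.406 CPM and 0.159 ± 0.0515 CPM, without overlap between any states, and the log2 fold change in mESC-ser was -2.97 (SE 0.153, edgeR adjusted p = 1.29e-07). Hoxb9 (ENSMUSG00000020875), which acts in the thoracic skeleton and mammary gland, held 138, 208 and 287 counts, then 35, 36 and 53, then 1, 4 and 1. Its level fell in serum from 19.1 ± 2.98 CPM to 2.82 ± 0.355 CPM (log2 fold change -2.79, SE 0.178, edgeR adjusted p = 5.09e-07). Hoxc12, next to Hoxc13, held 68, 99 and 158 counts, then 8, 8 and 15, then none in EpiLC. It was highest in replicate 3 of mESC-2i, and its log2 fold change in mESC-ser was -3.81 (SE 0.267).

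The remaining posterior genes of cluster C fell to a few reads. Hoxc9, a thoracic motor neuron gene, held 25, 51 and 36 counts in mESC-2i, 1, 0 and 2 in mESC-ser, then 1, 1 and 0 in EpiLC. Its log2 fold change in mESC-ser, -5.49 (SE 0.469, edgeR adjusted p = 3.82e-06), was the largest fall among the 23 tested Hox genes, and its counts of 112 against 3 gave a ratio of 50.2 (95% exact interval 16.7 to 247). Hoxc10, which acts in lumbar motor neurons, held 32, 42 and 42 counts, then 3, 1 and 6, then 1, 0 and 0. Hoxc11 held 17, 23 and 39 counts, then 6, 1 and 1, then 1, 1 and 0. Both were called lower in mESC-ser, at -3.95 (SE 0.351) and -3.67 (SE 0.504). Hoxc10 shares exon sequence with Hoxc5, which held 9, 6 and 6 counts in mESC-2i and none in mESC-ser.

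In the other clusters Hoxd9 behaved like the genes of cluster C, with 46, 55 and 72 counts in mESC-2i, 8, 2 and 4 in mESC-ser, then 0, 1 and 0 in EpiLC. It fell from 5.35 ± 0.663 CPM to 0.316 ± 0.206 CPM in mESC-ser (log2 fold change -4.05, SE 0.336, edgeR adjusted p = 3.10e-06). Hoxa9, which acts in blood progenitors, held 27, 28 and 57 counts, then 1, 2 and 7, then 0, 1 and 1. Hoxa10, which acts in the uterus, held 20, 43 and 45 counts, then 10, 7 and 13, then 1, 1 and 0. Of these 2 neighbours, Hoxa9 changed by -3.89 (SE 0.460) and Hoxa10 by -2.27 (SE 0.268) in mESC-ser. Hoxb13, of the tail and prostate, held 22, 50 and 25 counts, then 6, 6 and 9, then 0, 1 and 0, with a log2 fold change in mESC-ser of -2.64 (SE 0.364).

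Hoxd13 (ENSMUSG00000001819), which patterns digits and the urogenital tract, was the one Hox gene called higher outside the naive state. It held 8, 16 and 14 counts in mESC-2i, 39, 32 and 44 in mESC-ser, then 18, 14 and 17 in EpiLC. In CPM the mESC-2i libraries, at 1.01 to 1.33, lay below all others, the mESC-ser libraries at 2.53 to 2.69 and the EpiLC libraries at 1.53 to 2.40. The log2 fold change in mESC-ser was 1.14 (SE 0.239, edgeR adjusted p = 0.00166). In EpiLC against mESC-2i it was 0.78 (SE 0.296, adjusted p = 0.0324), a call that was lost under 10 of the alternative settings and omissions of a library. The 2 comparisons share the mESC-2i libraries. Its paralogues at position 13 were Hoxa13, with 5 to 13 counts in mESC-2i, 3 to 6 in mESC-ser, then 0 in EpiLC, Hoxb13 and Hoxc13, and all 3 lay lower in every mESC-ser library than in any mESC-2i library. None of the 50-base words of Hoxd13 occur in another annotated gene.

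A further 14 Hox genes had a mean under 10 counts in every state. They were Hoxa2, Hoxa4, Hoxa5, Hoxa6, Hoxa11, Hoxa13, Hoxb1, Hoxb5, Hoxb8, Hoxc5, Hoxd1, Hoxd10, Hoxd11 and Hoxd12. Their libraries held between 0 and 16 counts in mESC-2i, 0 and 11 in mESC-ser, then 0 and 5 in EpiLC. None passed the filter, so they were tested only in the fit without it. Hoxb1, the hindbrain gene, went against the majority in means, with 1, 1 and 6 counts in mESC-2i, 5, 4 and 11 in mESC-ser, then 5, 3 and 0 in EpiLC, and all 3 groups overlapped. Hoxd1 held 6, 5 and 6, then 7, 4 and 6, then 3, 4 and 3 counts, with overlapping CPM in each pair of states.

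The comparison of EpiLC with mESC-2i asked what happens to the genes when naive cells move towards the epiblast. Of 21 Hox genes tested, 20 were called lower in EpiLC and Hoxd13 higher. Of all 15378 genes tested, 37.8% were called lower and 32.0% higher. With 33 of 38 Hox genes at the floor in EpiLC, most of the 21 passed the filter through mESC-2i alone. Such genes could hardly be called otherwise than lower, so the count of 20 cannot be weighed against the background. In 34 of the 38 genes every EpiLC library lay below every mESC-2i library (background 33.3%), in 1 above (background 29.0%), and in 3, Hoxb1, Hoxd1 and Hoxd12, the groups overlapped. The median of all 38 was -5.17 in a fit without the filter, against -0.17 over all genes with a count. It was -2.46 with 30 genes at the floor in EpiLC alone set at that limit, which was not done for the background. Hoxa6 and Hoxb5, whose mESC-2i level lay under that limit, kept their values from the fit without the filter. Hoxc13 fell by 6.98 on the log2 scale (SE 0.251, edgeR adjusted p = 4.79e-09), and Hoxb9 fell by 6.23 (SE 0.320, adjusted p = 4.71e-08). For genes with no read in EpiLC only bounds can be given. Against a floor of 3 counts in each library, mESC-2i levels were at least 26.5-fold higher for Hoxc12, 7.51-fold for Hoxc8 and 6.54-fold for Hoxa3. From 210 against 2 counts the ratio for Hoxc4 was 79.2 (95% exact interval 21.7 to 658), and from 173 against 1 that for Hoxd9 was 131 (23.1 to 5185). Hoxa7, one of the 5 genes above the floor in EpiLC, fell by 3.49 on the log2 scale (SE 0.402).

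EpiLC and mESC-ser were compared over the same table. Only 5 Hox genes passed the filter, since most had too few reads in both. Of these, 4 were called lower in EpiLC, where 37.8% of 15345 genes tested were called lower and 35.5% higher. These 4 passed the filter through their mESC-ser counts. Among them were Hoxc13 (-3.99, SE 0.418, edgeR adjusted p = 1.45e-07), Hoxb9 (-3.41, SE 0.407) and Hoxa7 (-1.74, SE 0.474). Hoxd13 was not called, at -0.32 (SE 0.240, adjusted p = 0.220), though all 3 EpiLC libraries lay below the 3 mESC-ser libraries. In 19 of 38 genes the EpiLC libraries lay below all mESC-ser libraries (background 35.3%), in none above (background 29.0%), and in 19 they overlapped. With no filter 14 Hox genes were called lower, and with all 9 libraries in one fit 12.

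The length of a transcript was related to the fold change over all genes, and Hox transcripts are short. Across protein-coding genes exonic length and log2 fold change had a Spearman correlation of 0.280 for mESC-ser versus mESC-2i, -0.300 for EpiLC versus mESC-2i and -0.498 for EpiLC versus mESC-ser, as a description in which all genes share the libraries. The median Hox gene had 2466.5 exonic bases against 4426 in the genes tested for the first pair. With offsets for length and GC content in each library, the summed Hox level of mESC-2i was 4.56-fold above mESC-ser and 24.9-fold above EpiLC, and all 22 and all 20 lower calls of these pairs were made again. That of mESC-ser was 5.46-fold above EpiLC, against 4.29-fold without offsets. Correlations with length of 0.0391, -0.0890 and -0.127 remained after the offsets, in the order of pairs given above.

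Beside the clusters lie 58 other genes within 200 kb, and their transcripts did not all follow the Hox genes. In mESC-ser 11 were called lower and 4 higher, among 21 tested, beside 30.3% and 25.9% of all genes tested. Halr1 (ENSMUSG00000085412), a long non-coding RNA beside cluster A, moved the other way from the called genes of that cluster. It held 2, 3 and 7 counts in mESC-2i, 226, 175 and 282 in mESC-ser, then 8, 8 and 6 in EpiLC. The mESC-ser libraries stood far above both other states, with a log2 fold change against mESC-2i of 5.34 (SE 0.249, edgeR adjusted p = 6.84e-08) and of EpiLC against mESC-ser of -4.03 (SE 0.202, adjusted p = 1.12e-11). Hotairm1, a non-coding RNA of cluster A, held 15, 19 and 35 counts, then 11, 6 and 10, then 3, 4 and 2, and changed by -1.78 (SE 0.329) in mESC-ser and -2.48 (SE 0.414) for EpiLC versus mESC-2i. Evx1, the homeobox gene beyond Hoxa13, held 3, 8 and 17 counts, then 15, 13 and 28, then 0, 4 and 0, and was called only for EpiLC versus mESC-ser (-2.82, SE 0.641).

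In cluster B, Gm53, a transcript between Hoxb13 and Hoxb9, held 238, 339 and 754 counts in mESC-2i, 101, 77 and 146 in mESC-ser, then 14, 17 and 20 in EpiLC. Replicate 3 of mESC-2i was the highest by far, and no groups overlapped (-2.46, SE 0.278, in mESC-ser). Hoxb3os, antisense to Hoxb2 and Hoxb3, held 13, 11 and 29 counts in mESC-2i and none in mESC-ser, at least 7.69-fold higher in mESC-2i, and 0, 0 and 2 counts in EpiLC. Calcoco2, an autophagy receptor gene beyond Hoxb13, held 827, 1290 and 1117 counts, then 672, 561 and 754, then 17, 13 and 22, and changed by -1.16 (SE 0.111) in mESC-ser and -5.55 (SE 0.186) for EpiLC versus mESC-2i. Ttll6 held 43, 55 and 166 counts in mESC-2i and 87, 89 and 149 in mESC-ser, which overlapped, and 3, 7 and 5 in EpiLC. Of the 10 listed non-coding Hox transcripts 3 were tested in mESC-ser, with 2 called lower and 1 higher (30.3% and 25.9% of all genes tested). At the floor were 2, 7 and 8 of the 10 in mESC-2i, mESC-ser and EpiLC (52.9%, 51.5% and 55.8% of all genes). Over all neighbours, 9 of 19 tested were called higher and 7 lower for EpiLC versus mESC-2i (32.0% and 37.8% of all genes), and 8 of 20 higher and 11 lower for EpiLC versus mESC-ser (35.5% and 37.8%).

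Among the listed caudal, ParaHox, upstream activator and early mesoderm genes, Cdx1, Cdx2, T and Nkx1-2 were highest in mESC-2i. Cdx1, a caudal factor that binds Hox regulatory DNA, held 369, 713 and 511 counts in mESC-2i, 37, 21 and 50 in mESC-ser, then 0, 2 and 0 in EpiLC. Its level fell from 48.7 ± 9.86 CPM to 2.39 ± 0.581 CPM in mESC-ser (log2 fold change -4.34, SE 0.208, edgeR adjusted p = 7.89e-08). Cdx2 held 119, 206 and 187 counts, then 31, 27 and 50, then 3, 4 and 0 (-2.70, SE 0.168, in mESC-ser). The third caudal gene, Cdx4, held 3, 4 and 3 counts, then 9, 10 and 8, then none, and did not pass the filter in either comparison with mESC-2i. Gsx1, a ParaHox gene, went the other way, with 0, 1 and 2 counts in mESC-2i, 32, 29 and 41 in mESC-ser, then 6, 11 and 4 in EpiLC. In the list of 6 caudal and ParaHox genes, 2 of 3 tested were called lower and 1 higher in mESC-ser (30.3% and 25.9% of all genes tested). Lower calls were 2 of 2 for EpiLC versus mESC-2i and 3 of 3 for EpiLC versus mESC-ser (37.8% of all genes tested in each).

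T (Brachyury), a mesoderm factor and Wnt target, held 630, 969 and 1261 counts in mESC-2i, 53, 53 and 86 in mESC-ser, then 10, 10 and 13 in EpiLC. Nkx1-2, a gene of the caudal epiblast, held 307, 426 and 452 counts, then 9, 7 and 9, then 13, 18 and 10. Both were far above the other states in mESC-2i, with log2 fold changes in mESC-ser of -4.34 (SE 0.156) and -6.01 (SE 0.174). Fgf8 held 24, 48 and 49 counts, then 19, 13 and 24, then 217, 291 and 222, so it was lowest in mESC-ser and highest in EpiLC. The part of these genes in the Hox levels was not tested. Of this list of 8 upstream activator and early mesoderm genes, 4 were called lower and 2 higher in mESC-ser (30.3% and 25.9% of all genes tested). For EpiLC versus mESC-2i it was 3 and 3 (37.8% and 32.0% of all). For EpiLC versus mESC-ser it was 2 lower and 4 higher (37.8% and 35.5%). T also stood in a list of 5 mesoderm and neuromesodermal markers, whose summed level was 80.0 to 101 CPM in mESC-2i, then 6.40 to 7.54 CPM in mESC-ser and 4.15 to 4.27 CPM in EpiLC. Of the other 4, Mesp1, Meox1 and Msgn1 were at the floor in mESC-2i and Tbx6 held 3, 12 and 22 counts. Of the other cell types, 5 neural markers summed to 146 to 176 CPM in mESC-2i, then 128 to 134 CPM in mESC-ser and 36.0 to 36.7 CPM in EpiLC, and 8 fibroblast markers to 48.4 to 57.7, 62.6 to 83.2 and 31.5 to 39.3 CPM. These sums hide members that went different ways. Tubb3 made up most of the neural sum, at 133 ± 14.1, 98.8 ± 1.82 and 34.5 ± 0.869 CPM. Sox1, at 24.3 ± 1.61, 6.74 ± 1.64 and 1.23 ± 0.217 CPM, and Neurog2, at 1.38 ± 0.123 CPM, 0.0699 ± 0.0129 CPM and no read, were called lower in mESC-ser as most tested Hox genes were, whereas Pax6 rose from 1.71 ± 0.356 to 24.9 ± 0.887 CPM in mESC-ser. Among the fibroblast markers Col3a1, at 12.1 ± 1.54, 2.10 ± 0.128 and 0.182 ± 0.315 CPM, and Prrx1, at 1.70 ± 0.398, 0.329 ± 0.115 and 0.0418 ± 0.0725 CPM, were called lower in mESC-ser, Col1a1 rose from 22.8 ± 4.04 to 49.1 ± 8.25 CPM there, and Thy1 was highest in EpiLC, at 29.5 ± 2.15 CPM. The part of such cells in the Hox result was not tested.

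**Figure D4:**
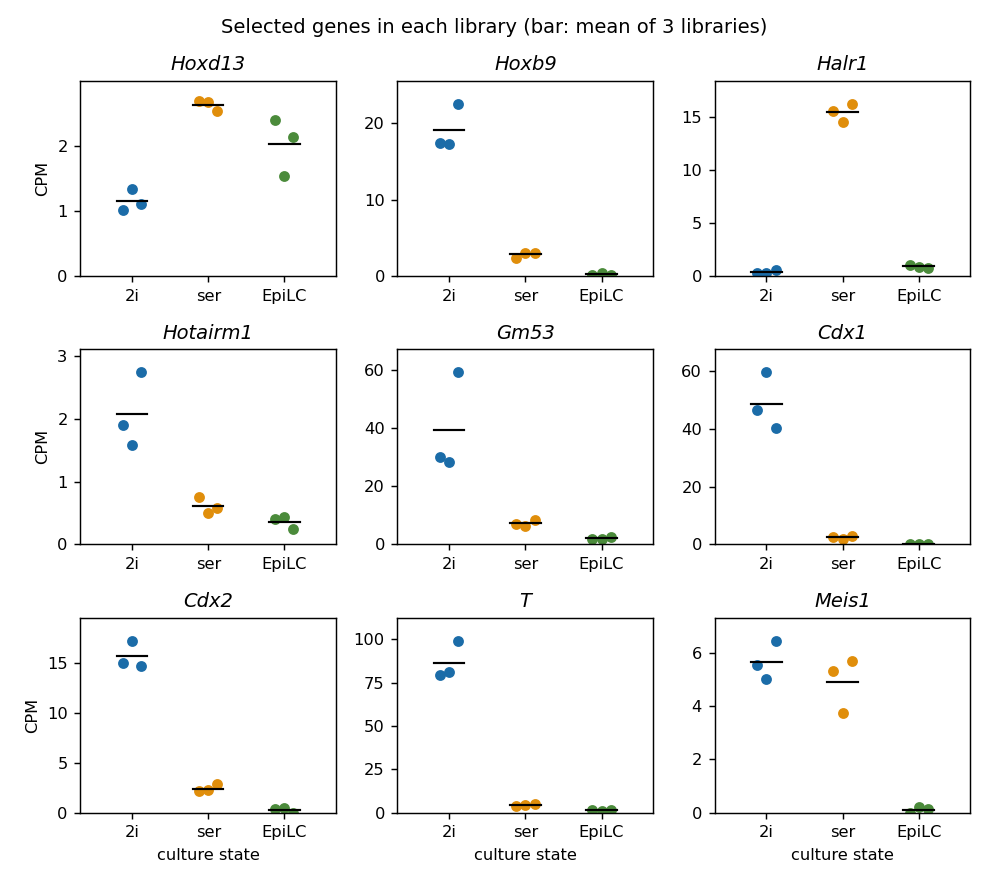
CPM (linear axes from 0) of 9 genes in each library of mESC-2i (2i), mESC-ser (ser) and EpiLC, with the mean of 3 libraries as a bar. Hoxb9, Hotairm1, Gm53, Cdx1, Cdx2 and T are highest in mESC-2i, Halr1 and Hoxd13 are highest in mESC-ser, and Meis1 is near 5 CPM in both mESC states and near 0 in EpiLC.

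Among the 9 TALE cofactor genes, 4 were called lower and 1 higher in mESC-ser (30.3% and 25.9% of all genes tested). For EpiLC versus mESC-2i 4 were called lower and 2 higher (37.8% and 32.0% of all). For EpiLC versus mESC-ser it was again 4 lower and 2 higher (37.8% and 35.5%). Meis1 held 44, 60 and 82 counts in mESC-2i, 77, 45 and 99 in mESC-ser, then 0, 2 and 1 in EpiLC. The mESC states overlapped (-0.22, SE 0.199, adjusted p = 0.345), though with length and GC offsets Meis1 was called lower in mESC-ser at -0.80. Its EpiLC level lay far below (-5.40, SE 0.435, edgeR adjusted p = 1.08e-06 against mESC-2i). Meis2 held 233, 289 and 370 counts, then 163, 117 and 212, then 14, 13 and 12, and Pknox2 held 86, 131 and 139, then 53, 39 and 55, then 14, 20 and 9. In means both were lower in each state than in the one before, but the call of Pknox2 for EpiLC versus mESC-ser was lost with offsets for length and GC content, where its log2 fold change was -0.0501. Gmnn (geminin), which binds Hox proteins and opposes them, held 514, 817 and 646 counts, then 856, 715 and 825, then 876, 1164 and 912, with log2 fold changes of -0.17 (SE 0.142, not called) in mESC-ser and 0.96 (SE 0.118) for EpiLC versus mESC-2i.

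Retinoic acid genes did not share 1 direction. Of 11, 3 were called higher and 1 lower in mESC-ser (25.9% and 30.3% of all genes tested). For EpiLC versus mESC-2i it was 3 and 3 (32.0% and 37.8% of all). For EpiLC versus mESC-ser it was 2 higher and 4 lower (35.5% and 37.8%). Cyp26a1, which degrades retinoic acid, held 4, 2 and 1 counts in mESC-2i, 34, 21 and 31 in mESC-ser, then 2, 0 and 0 in EpiLC. The receptor gene Rxrg held 1, 6 and 1 counts, then 22, 15 and 26, then 101, 129 and 110. Stra8, a gene induced by retinoic acid, held 43, 57 and 70 counts, then 98, 65 and 109, then 2, 5 and 4, and was lower in EpiLC than in either mESC state.

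Among 16 Polycomb genes, 6 were called higher and 2 lower in mESC-ser, 5 and 5 for EpiLC versus mESC-2i, and 3 higher and 10 lower for EpiLC versus mESC-ser. Of all genes tested 25.9% and 30.3%, 32.0% and 37.8%, and 35.5% and 37.8% were called higher and lower in these 3 comparisons, so the Polycomb counts for EpiLC versus mESC-2i lie close to the background, and the other context lists are to be read against the same shares. Jarid2, which helps to bring Polycomb repressive complex 2 to DNA, rose from 170 ± 15.2 CPM to 833 ± 101 CPM in mESC-ser (log2 fold change 2.26, SE 0.122, edgeR adjusted p = 1.76e-07) and stood at 128 ± 3.77 CPM in EpiLC. Phf19, a factor of the same complex, held 8, 13 and 17 counts in mESC-2i, 182, 176 and 273 in mESC-ser, then 19, 22 and 12 in EpiLC. The core subunit Suz12 was not called in mESC-ser (0.19, SE 0.0934) and fell for EpiLC versus mESC-2i (-2.26, SE 0.100). Of the 6 trithorax and demethylase genes 3 were called higher and 1 lower in mESC-ser, and 3 lower for EpiLC versus mESC-2i. Kdm6a, an eraser of the Polycomb mark, stood at 40.7 ± 5.63, 122 ± 4.02 and 13.3 ± 2.83 CPM, Kmt2a at 49.3 ± 23.1, 196 ± 23.2 and 37.1 ± 3.30 CPM, and Kmt2b at 154 ± 51.4, 282 ± 39.4 and 102 ± 7.97 CPM in mESC-2i, mESC-ser and EpiLC. Replicate 3 of mESC-2i was the highest of its group for both Kmt2 genes. Of the boundary genes, Ctcf and Rad21 were both called higher in mESC-ser (0.89, SE 0.0947, and 0.72, SE 0.104), and Rad21 fell for EpiLC versus mESC-2i (-1.63, SE 0.136). Histone marks and protein levels at the clusters were not used here.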

How the data were processed

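Per the labels and methods, RNA of E14 cells was poly-A enriched, prepared with a TruSeq kit that does not keep strand and sequenced as 50 bp single-end reads. The authors checked the reads with FastQC, trimmed them with Trim Galore 0.6.6, aligned them with HISAT2 2.2.1 to mm10 and counted them with featureCounts (Subread 2.0.1). What was deposited is the raw count of reads for each gene. The annotation release, strand setting and handling of reads with several alignments were not given in the sources used here.

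Symbols, positions and exonic lengths came from GENCODE M21 (GRCm38, the assembly of mm10), which matched 36429 of 38293 identifiers (95.1%). Serum columns were assigned by reading their initials as serum and LIF, which the titles name.

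Each pair of states was fitted on its 6 libraries with edgeR 4.0.16 in R 4.3.3 (filterByExpr, TMM, quasi-likelihood F-test), and p-values were adjusted over all genes tested. SE were taken from the F statistic. Counting intervals were exact 95% intervals on summed counts. On counts simulated for mESC-ser against mESC-2i, 15630 genes were tested and 200 changed. Of these, 95 of 100 genes changed 2-fold and 100 of 100 changed 4-fold were recovered, with 12 false calls among 207. The changed genes were drawn only from those with higher counts, and all genes had the same fixed dispersion. These rates therefore do not extend to genes with few counts, or to the spread of the real replicates. The main fits did not pair libraries by replicate number, and the replicate block was an alternative setting. Between mESC-ser and mESC-2i, deviations of same-numbered libraries had correlations of 0.129 to 0.345, and those of differently numbered libraries -0.278 to 0.146. Between EpiLC and the other states these were 0.016 to 0.112 and -0.114 to 0.0159. Whether the numbers mark pairs was not tested. What a replicate number marks is not given, so p-values measure the spread between these libraries.

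The members, the context lists and the 200 kb neighbourhood were chosen with earlier results of these data known. Values in every library are given for Hox genes with a mean of at least 10 counts in a state. Of each list up to 3 called genes with the largest changes are named, with Cdx1, Cdx2, Cdx4, Meis1 and Gmnn named in any case. Some genes that this rule selects are counted in the sums and calls but are not reported here one by one. The printed promoters, and the genes named beyond this, were chosen after values were seen. Figures were drawn with matplotlib 3.10.9. The alternatives tried are given in the closing section.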

Additional observations from a re-analysis of the deposited data

How the results depend on the processing

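Hoxd13 kept its higher call in mESC-ser versus mESC-2i under every alternative that tested it, and the lower calls of the other 22 genes were kept under every alternative that tested them, except that 21 passed a log2 threshold of 1. The requirement of at least 10 counts in every library leaves out the genes that fell, so it tested 4 Hox genes here, of which 4 were called lower and 0 higher, against 22 and 1. In EpiLC versus mESC-2i the same filter left 0 Hox genes to call in either direction, and in EpiLC versus mESC-ser 0 lower.

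In EpiLC versus mESC-2i the count of Hox genes called higher went from 1 to 0 for total counts, no filter, DESeq2, the replicate block, a log2 threshold of 1 and a nominal p under 0.01, all through Hoxd13 (log2 fold change 0.44 with total counts, 0.76 with no filter, 0.86 by DESeq2, 0.77 with the block). Leaving out replicate 1 or 3 of mESC-2i, or replicate 1 or 3 of EpiLC, did the same. Without 1 library the counts were 0 to 1 higher and 21 to 24 lower there, 23 to 25 lower and 1 higher in mESC-ser versus mESC-2i, and 4 lower in EpiLC versus mESC-ser. Without the filter 33 Hox genes were called lower in EpiLC versus mESC-2i, and 14 in EpiLC versus mESC-ser, where one fit of all libraries gave 12.

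The replicate block left 22 lower and 1 higher Hox calls in mESC-ser versus mESC-2i, 20 lower in EpiLC versus mESC-2i and 4 lower in EpiLC versus mESC-ser, and changed no other Hox call.

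Over all genes, total counts shifted the median log2 fold change from -0.109 to -0.448 in EpiLC versus mESC-2i and from -0.0678 to -0.408 in EpiLC versus mESC-ser, and the share of higher calls from 45.9% to 33.7% and from 48.4% to 37.4%. With it the mESC-2i and mESC-ser Hox sums were 131 and 23.3 CPM, and with length and GC offsets 25.6 CPM in mESC-ser. Without 1 library the sums ranged from 116 to 122, 21.8 to 22.8 and 4.78 to 5.45 CPM. Over all scalings mESC-2i stayed 4.56 to 5.64-fold above mESC-ser and 21.96 to 29.1-fold above EpiLC.

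The number of genes at the floor followed its limit, 10 in mESC-2i and 27 in mESC-ser at 10 counts, and 0, 2 and 12 in mESC-2i, mESC-ser and EpiLC at 0 counts. Without 1 library it was 1 to 3, 14 to 15 and 33 to 35, with 3 in mESC-2i when replicate 3 was left out.

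For context lists, calls in mESC-ser at a log2 threshold of 1 went from 19 to 11 higher. In EpiLC versus mESC-2i they went from 14 to 7 higher with total counts and with a log2 threshold of 1, and from 23 to 35 lower with no filter. Without 1 library they were 17 to 18 lower and 18 to 20 higher in mESC-ser versus mESC-2i, 21 to 26 and 12 to 15 in EpiLC versus mESC-2i, and 28 to 34 and 13 to 14 in EpiLC versus mESC-ser. Calls of neighbours went from 7 to 16 lower with no filter in EpiLC versus mESC-2i, and from 11 to 7 lower in EpiLC versus mESC-ser with length and GC offsets or a log2 threshold of 1.

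Among the genes named here, directions reversed only for those without a call in that comparison. With length and GC offsets these were Gmnn (0.0386), Suz12 (-0.16) and Ttll6 (0.10) in mESC-ser versus mESC-2i, and Ctcf (0.23), Jarid2 (0.17) and Kmt2a (0.39) in EpiLC versus mESC-2i. Over omissions of 1 library Ttll6 ranged from -0.42 to 0.55 in mESC-ser versus mESC-2i, above 0 without replicate 3 of mESC-2i or replicate 1 of mESC-ser, and Kmt2a from -0.63 to 0.0506 in EpiLC versus mESC-2i, above 0 without replicate 3 of mESC-2i. With length and GC offsets Meis1 and Stra8 also gained a call in mESC-ser versus mESC-2i, while Kmt2b lost its call in EpiLC versus mESC-2i and Pknox2 in EpiLC versus mESC-ser. The cause of these changes was not tested. Depth limits the EpiLC values most, where the Hox genes held 37 to 45 counts in all per library.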
